A study of Ovis aries with 12 samples.

Results

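Interferon-stimulated genes were followed in the corpus luteum of the ewe, the progesterone-making gland that forms in the ovary once an egg is released. The members were 57 genes named from knowledge of the interferon response, with earlier results of these data known. Their shares are thus descriptive. A member counted as measured where at least 1 probe set of the bovine array carried its symbol and no other in the platform annotation. This gave 39 genes with 58 probe sets, of 9155 named genes and 24016 probe sets in all. A gene is described by its brightest probe set. The symbols of the other 18 (IFIT1, IFIT3, OAS1Y, OAS2, CMPK2, ISG20, BST2, IFITM2, IFITM3, GBP2, SAMHD1, ADAR, IFIH1, RIGI, ZBP1, IRF1, SP110 and PLSCR1) did not occur alone on a probe set, and those genes were not analysed here.

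Corpora lutea of 12 ewes were measured, 1 array per ewe and 3 ewes in each of 4 groups, formed by pregnancy (pregnant or non-pregnant) and by day of collection (12 or 14). Pregnant ewes had been bred to a fertile ram. Non-pregnant ewes were unbred and were heat checked with a vasectomized ram. Breed, age and a check for a conceptus were not given in the labels. Sample titles name day 12 pregnant for every array, against the source labels of 9 arrays, and groups follow the source labels. The arrays were described as gene arrays (4: 2 day 14 non-pregnant, 1 day 14 pregnant, 1 day 12 pregnant) or genome arrays (8), a difference that was kept as a term in every comparison.

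Interferons bind receptors on the cell surface and act through the kinases JAK1 and TYK2 on transcription factors such as STAT2 and IRF9, which act in the complex ISGF3 and switch on genes that carry an interferon-stimulated response element. In sheep and other ruminants the trophoblast of the early conceptus secretes interferon tau, which acts on the uterus to prevent luteolysis, the regression of the corpus luteum at the end of the cycle. Interferon tau is also known to leave the uterus, and interferon-stimulated genes are a known response of maternal tissues outside it, including the corpus luteum and blood cells.

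The gland's defining genes were present: STAR, which carries cholesterol into mitochondria, lay between 12.18 and 13.18 (log2) over the 12 arrays, and none of the 11 measured luteal markers was among the dim probe sets (mean under 3.59, the lowest 25 percent). The mean over those 11 markers was 10.24 to 10.40 in day 14 pregnant ewes and 9.68 to 10.09 in day 14 non-pregnant ewes, without overlap. On day 12 it was 10.32 to 10.38 in pregnant and 10.24 to 10.37 in non-pregnant ewes. Signal at the 3′ over that at the 5′ end of the actin and GAPDH controls (log2) was 1.44 to 1.60 in day 14 pregnant and 1.29 to 1.43 in day 14 non-pregnant ewes, and 1.57 to 1.60 and 1.42 to 1.47 on day 12. Correlations between arrays were 0.982 to 0.995, and no array repeated another. In whole glands fewer cells of a type and less RNA per cell cannot be told apart, and the part of these differences in the results was not tested.

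On day 14, 11 of the 39 measured interferon-stimulated genes were higher in pregnant than in non-pregnant ewes (adjusted p under 0.05), and 36 had a difference above 0. That is 28.2% of members, against 0.743% of all named genes called higher, while 0 members were lower, against 1.2%. Differences are on the log2 scale and given ± the standard error from limma, with p-values adjusted by Benjamini-Hochberg over all 24016 probe sets. The median difference over members was 0.54 on the log2 scale, against 0.026 over all named genes. In 25 members (64.1%) every pregnant ewe lay above every non-pregnant ewe, against 11.8% of named genes. The 11 were IFIT5, DHX58, UBA7, UBE2L6, TRIM21, PARP9, PARP14, DTX3L, IFI35, XAF1 and IFI27. At an unadjusted p under 0.05 there were 25 members higher (64.1%, against 9.62% of named genes) and 0 lower (against 8.6%). The 11 luteal markers lay on the same side: 10 of 11 were above 0 with a median of 0.43, and in 7 (63.6%) pregnant ewes lay apart and above. The part of this shift in the members' differences was not tested.

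**Figure D1:**
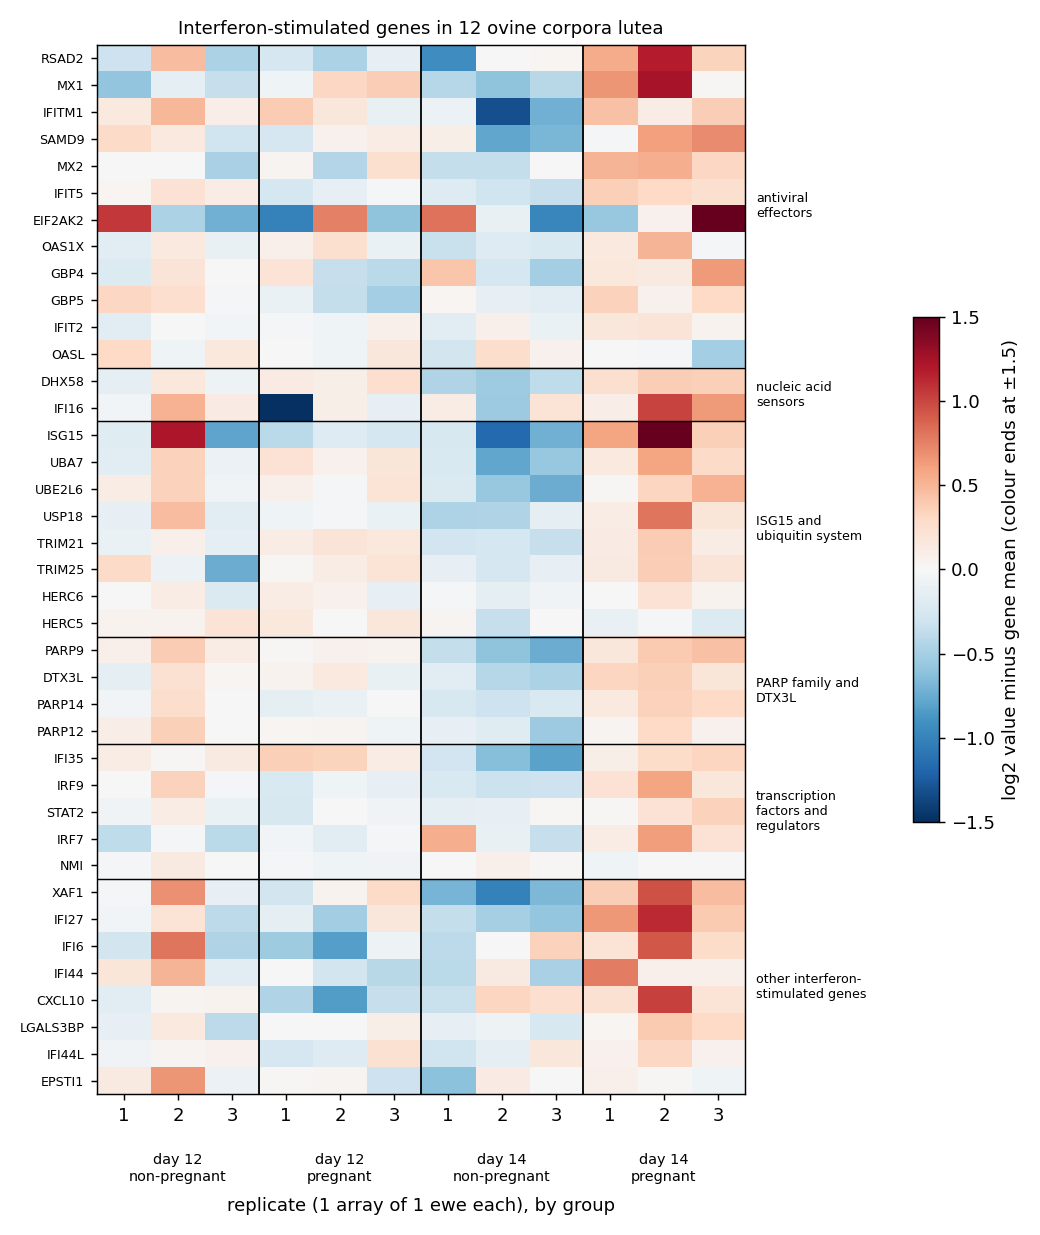
Each cell is the log2 value of a member on 1 array minus that member's mean over the 12 arrays, with members ordered by role and, within a role, by their day 14 pregnancy difference, and arrays by group and replicate. The 3 day 14 pregnant columns are mostly red and the 3 day 14 non-pregnant columns mostly blue, and day 12 non-pregnant replicate 2 is red for ISG15, XAF1 and IFI6.

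The order of the group means had the same shape in most members. The day 14 pregnant group had the highest mean of the 4 groups in 33 of 39 members, and the day 14 non-pregnant group had the lowest in 26 and the highest in 0. The day 12 groups mostly lay between: non-pregnant was highest in 4 and lowest in 3, and pregnant highest in 2 and lowest in 8. After centring each member on its mean over the 12 arrays, the median over members on an array was 0.15, 0.37 and 0.28 in the 3 day 14 pregnant ewes. It was -0.23, -0.26 and -0.31 in the day 14 non-pregnant ewes. On day 12 it was -0.012, -0.0094 and -0.031 in pregnant and -0.039, 0.19 and -0.089 in non-pregnant ewes. Both day 14 groups thus stood outside the day 12 pregnant range on opposite sides, while the same median over all named genes stayed between -0.037 and 0.024. Against all day 12 arrays, only the day 14 non-pregnant group stood apart. Day 12 non-pregnant replicate 2, at 0.19, lay above day 14 pregnant replicate 1, at 0.15.

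**Figure D2:**
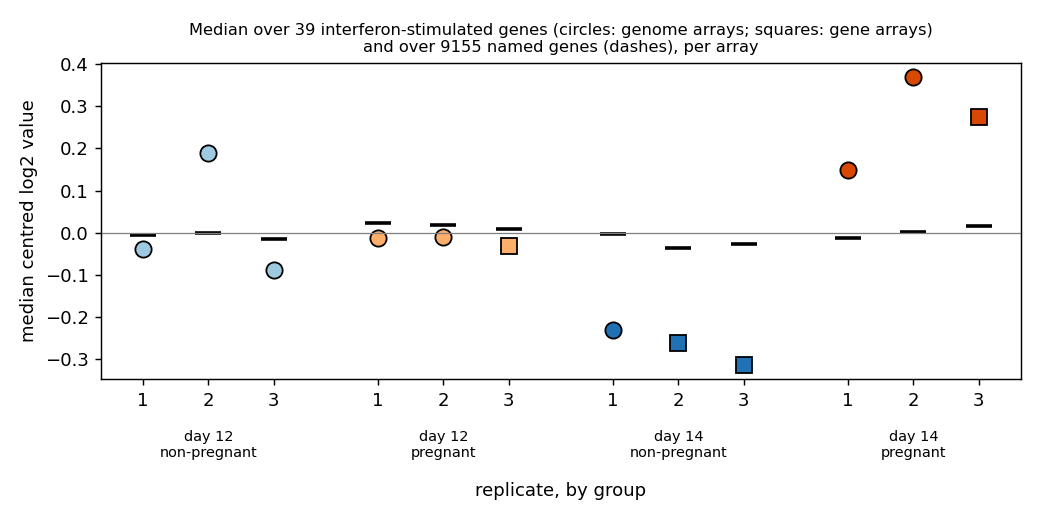
Points are the median over 39 interferon-stimulated genes of the log2 value centred per gene, for each of the 12 arrays by group and replicate; dashes are the same median over 9155 named genes. The day 14 pregnant arrays lie at 0.15 to 0.37, the day 14 non-pregnant arrays at -0.31 to -0.23, and day 12 non-pregnant replicate 2 at 0.19 stands above the other 5 day 12 arrays.

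Antiviral effectors are the proteins that act on viral entry, RNA or assembly. Of the 12 measured, 11 had a day 14 difference above 0, with a median of 0.55. Of these effectors 1 passed (8.33%, against 0.743% of named genes called higher). IFIT5, of the family that binds viral RNA, read 10.29, 10.23 and 10.17 in the 3 pregnant ewes and 9.75, 9.63 and 9.59 in the non-pregnant ewes, in order of replicate. All pregnant values were above all non-pregnant ones, and IFIT5 was higher by 0.57 ± 0.10, adjusted p = 0.0211, a 1.48-fold difference. The difference was 0.56 within gene arrays and 0.51 within genome arrays.

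MX1 and MX2, dynamin-like GTPases that block viral replication, also had separate groups on day 14, but neither passed. MX1 read 6.51, 7.08 and 5.86 in pregnant and 5.41, 5.23 and 5.42 in non-pregnant ewes (1.04 ± 0.24, adjusted p = 0.065), and MX1 passed without day 14 pregnant replicate 3, its lowest pregnant value (1.49, limma's adjusted p = 0.0371). MX2 read 5.01, 5.05 and 4.81 in pregnant and 4.15, 4.15 and 4.52 in non-pregnant ewes (0.73 ± 0.19, adjusted p = 0.0911). RSAD2, or viperin, an enzyme that makes a chain-terminating nucleotide, read 6.21, 6.83 and 5.99 in pregnant and 4.72, 5.65 and 5.68 in non-pregnant ewes (1.06 ± 0.31, adjusted p = 0.129). Its groups did not overlap, yet its non-pregnant ewes spread widely, and the difference was 0.32 within gene arrays and 1.80 within genome arrays.

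OAS1X, of the family that makes the second messenger which activates RNase L, read 6.35, 6.71 and 6.18 in pregnant and 5.87, 6.01 and 5.97 in non-pregnant ewes (0.41 ± 0.14, adjusted p = 0.184). The groups were apart by a small margin. IFITM1, a membrane protein that hinders viral fusion, read 9.86, 9.53 and 9.79 in pregnant and 9.33, 8.10 and 8.70 in non-pregnant ewes (0.88 ± 0.23, adjusted p = 0.0852), with 1.39 within gene arrays and 0.37 within genome arrays. The non-pregnant ewes of IFITM1 differed more among themselves than the pregnant ewes did. SAMD9, a restriction factor of poxviruses, was at 0.88 ± 0.27, adjusted p = 0.138, and its groups overlapped.

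The guanylate-binding proteins GBP4 (0.36) and GBP5 (0.29), GTPases induced mainly by interferon gamma, and IFIT2 (0.22) had smaller differences and did not pass. GBP5 alone of these had groups that were apart. OASL, a relative of the OAS enzymes without their activity, was the effector with a difference below 0 (-0.18 ± 0.18, adjusted p = 0.688). EIF2AK2, the kinase PKR that stops translation on double-stranded RNA, ranged from 4.90 to 7.69 over the 12 arrays, with 5.34, 5.97 and 7.69 in day 14 pregnant and 6.73, 5.80 and 4.93 in day 14 non-pregnant ewes. Every group of EIF2AK2 held both high and low ewes, so that its difference of 0.54 ± 0.72, adjusted p = 0.781 lay within the spread. It was 2.33 within gene arrays and -1.07 within genome arrays, of opposite sign.

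Among sensors of nucleic acids, DHX58 and IFI16 were measured. DHX58 encodes LGP2, a helicase of the RIG-I family that binds double-stranded RNA. It read 6.54, 6.67 and 6.67 in day 14 pregnant ewes and 5.85, 5.78 and 5.92 in day 14 non-pregnant ewes. These groups were well separated, with the lowest pregnant ewe 0.62 above the highest non-pregnant ewe, and DHX58 was higher by 0.80 ± 0.10, adjusted p = 0.00424 (1.74-fold). It was the only member that passed in each of the 12 refits that left out 1 array, and its difference was 0.82 within gene arrays and 0.76 within genome arrays. IFI16, a sensor of DNA, read 7.72, 8.63 and 8.26 in pregnant and 7.73, 7.07 and 7.83 in non-pregnant ewes, overlapping, and did not pass (0.74 ± 0.49, adjusted p = 0.511).

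ISG15 is a ubiquitin-like protein that is joined to other proteins by the E1 enzyme UBA7, the E2 enzyme UBE2L6 and HERC ligases, and is removed by the protease USP18, which also restrains the interferon receptor. All 8 genes of this group were measured, and 7 had a day 14 difference above 0, with a median of 0.59. In 7 (87.5%, against 11.8% of named genes) the groups were apart with pregnant ewes higher. HERC6 was among these 7 on a dim probe set, by a narrow margin (lowest pregnant 2.073, highest non-pregnant 2.059). Of the 8, 3 passed (37.5%, against 0.743%). ISG15 itself read 8.99, 10.20 and 8.75 in pregnant and 8.15, 7.23 and 7.68 in non-pregnant ewes. Its groups did not overlap, and its fitted difference of 1.46 (2.75-fold) was the highest among the members. Its standard error of 0.46 was large as well, and it did not pass (adjusted p = 0.152). Within gene arrays the ISG15 difference was 1.30 and within genome arrays 1.44.

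The conjugation enzymes passed. UBA7 read 6.96, 7.41 and 7.10 in pregnant and 6.58, 6.04 and 6.25 in non-pregnant ewes, and was higher by 0.82 ± 0.17, adjusted p = 0.0429 (1.76-fold). UBE2L6 read 7.07, 7.38 and 7.57 in pregnant and 6.83, 6.49 and 6.30 in non-pregnant ewes, and was higher by 0.81 ± 0.17, adjusted p = 0.045 (1.75-fold). In both, the 2 non-pregnant ewes measured on gene arrays (replicates 2 and 3) were the lowest of the 6. The UBE2L6 difference was 1.17 within gene arrays and 0.39 within genome arrays, and that of UBA7 0.96 within gene arrays and 0.60 within genome arrays. TRIM21, an antibody receptor in the cytosol and a ubiquitin ligase, read 5.84, 6.10 and 5.83 in pregnant and 5.43, 5.46 and 5.37 in non-pregnant ewes and was higher by 0.48 ± 0.10, adjusted p = 0.0459 (1.4-fold), with 0.41 within gene arrays and 0.54 within genome arrays. Its change was small, with tight groups that did not overlap.

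USP18 read 5.74, 6.43 and 5.81 in pregnant and 5.16, 5.18 and 5.49 in non-pregnant ewes (0.70 ± 0.21, adjusted p = 0.135), apart but not past the threshold. TRIM25, the ligase that modifies RIG-I, had groups apart too (0.40 ± 0.21, adjusted p = 0.393). HERC5 (-0.035) and HERC6 (0.12) were the only members whose brightest probe sets were dim, so their small differences say little about the ligases.

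PARP9, PARP12 and PARP14 are ADP-ribosyltransferases or their relatives, and DTX3L is the ubiquitin ligase that works as a pair with PARP9. All 4 had day 14 groups apart with pregnant ewes higher (100%, against 11.8% of named genes), and 3 passed (75%, against 0.743%). PARP9 read 8.22, 8.44 and 8.48 in pregnant and 7.69, 7.45 and 7.30 in non-pregnant ewes, and was higher by 0.88 ± 0.13, adjusted p = 0.00744 (1.84-fold). DTX3L read 7.94, 7.97 and 7.79 in pregnant and 7.45, 7.18 and 7.14 in non-pregnant ewes, and was higher by 0.57 ± 0.10, adjusted p = 0.0256 (1.48-fold). PARP14 read 8.27, 8.47 and 8.42 in pregnant and 7.88, 7.81 and 7.89 in non-pregnant ewes, and was higher by 0.54 ± 0.11, adjusted p = 0.032 (1.46-fold). The values of each of these 3 genes were tight, with the highest SD within a day 14 group at 0.197, that of PARP9 in non-pregnant ewes. PARP12, at 0.37 ± 0.13, adjusted p = 0.201, did not pass. Within gene arrays and within genome arrays the differences were 1.11 and 0.64 for PARP9, 0.63 and 0.51 for DTX3L and 0.57 and 0.49 for PARP14.

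Of the 5 measured transcription factors and regulators, IFI35 passed (20%, against 0.743% of named genes called higher). IFI35, a leucine zipper protein that binds NMI, read 8.37, 8.56 and 8.61 in pregnant and 7.996, 7.65 and 7.48 in non-pregnant ewes and was higher by 0.75 ± 0.12, adjusted p = 0.0169 (1.68-fold), with 1.05 within gene arrays and 0.47 within genome arrays. NMI, its partner, lay between 9.17 and 9.37 on all 12 arrays, and its day 14 difference was -0.042 ± 0.09, adjusted p = 0.862. IRF9, the DNA-binding part of ISGF3, read 6.41, 6.78 and 6.37 in pregnant and 5.96, 5.87 and 5.88 in non-pregnant ewes, apart but not past the threshold (0.58 ± 0.13, adjusted p = 0.0607). Without day 12 non-pregnant replicate 2 IRF9 passed (0.58, adjusted p = 0.049).

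STAT2, also of ISGF3, read 5.98, 6.18 and 6.31 in day 14 pregnant and 5.83, 5.84 and 5.98 in day 14 non-pregnant ewes (0.32 ± 0.11, adjusted p = 0.181), with groups apart by only 0.0010. IRF7, which amplifies the interferon response, read 6.69, 7.20 and 6.79 in pregnant and 7.12, 6.46 and 6.23 in non-pregnant ewes (0.19 ± 0.20, adjusted p = 0.693). Its groups overlapped, and non-pregnant replicate 1 was nearly as high as the highest pregnant ewe.

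All 8 other interferon-stimulated genes had a day 14 difference above 0, and 2 passed (25%, against 0.743% of named genes called higher). XAF1, a partner of the apoptosis inhibitor XIAP that favours cell death, read 6.90, 7.48 and 6.99 in pregnant and 5.82, 5.51 and 5.85 in non-pregnant ewes. The lowest pregnant ewe was 1.05 above the highest non-pregnant ewe, and XAF1 was higher by 1.40 ± 0.24, adjusted p = 0.0193 (2.64-fold), with 1.31 within gene arrays and 1.37 within genome arrays. IFI27, a small mitochondrial protein, read 10.78, 11.25 and 10.51 in pregnant and 9.76, 9.62 and 9.54 in non-pregnant ewes and was higher by 1.18 ± 0.23, adjusted p = 0.0303 (2.27-fold), with 0.93 within gene arrays and 1.25 within genome arrays. These were the highest differences among the members that passed.

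LGALS3BP, a secreted glycoprotein that binds galectins, had groups apart and did not pass (0.41 ± 0.14, adjusted p = 0.198). The others had overlapping groups: IFI6, another mitochondrial protein, read 10.99, 11.72 and 11.06 in pregnant and 10.39, 10.79 and 11.13 in non-pregnant ewes (0.58 ± 0.33, adjusted p = 0.434). CXCL10, a chemokine for activated T cells, read 5.91, 6.71 and 5.89 in pregnant and 5.34, 6.0 and 5.94 in non-pregnant ewes (0.47 ± 0.24, adjusted p = 0.384), with pregnant replicate 2 alone above the rest. The CXCL10 difference was -0.079 within gene arrays and 0.97 within genome arrays, of opposite sign. IFI44 (0.52), IFI44L (0.30) and EPSTI1 (0.20) did not pass either.

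**Figure D3:**
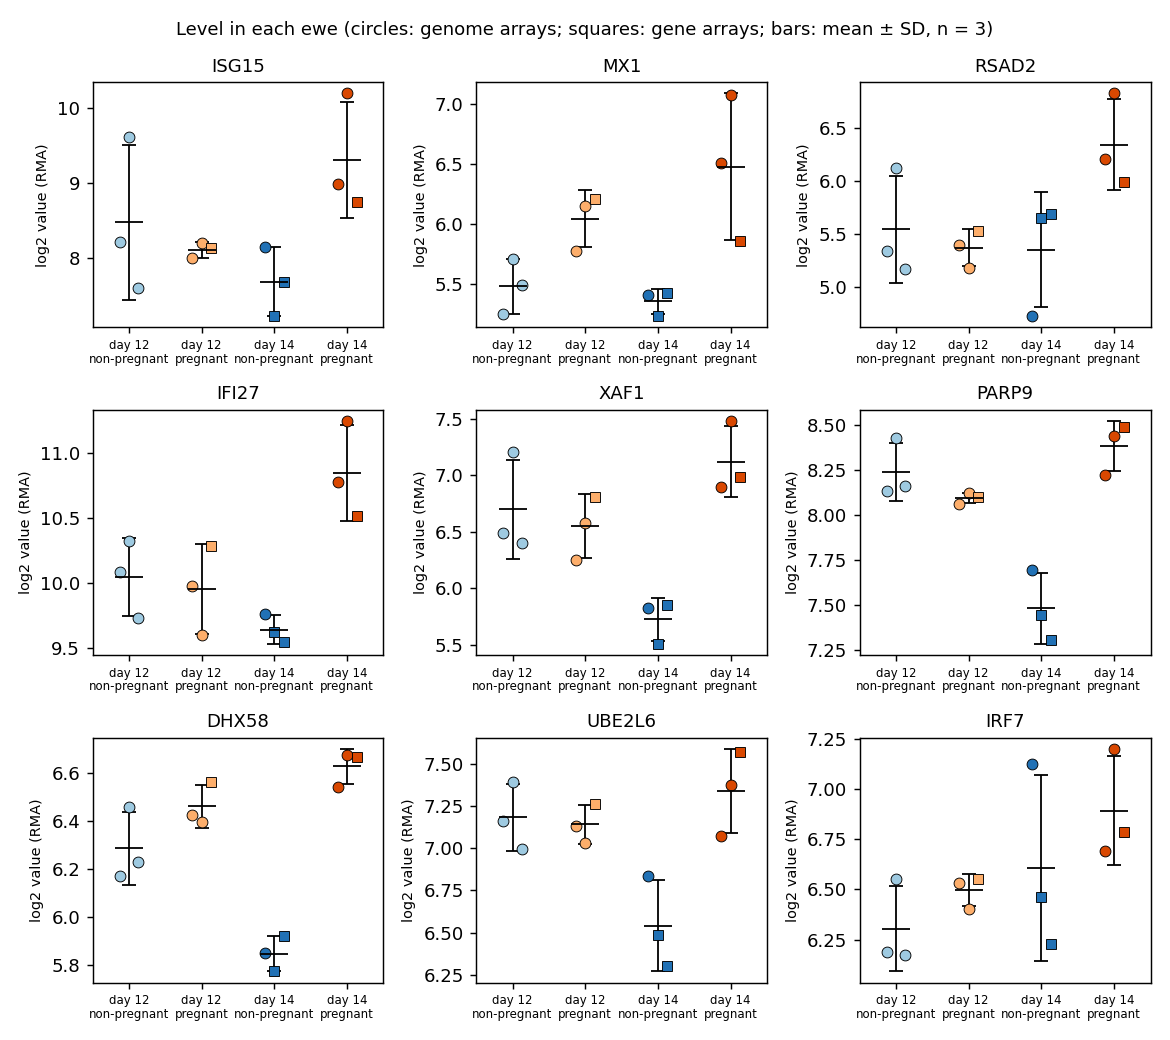
Log2 level of 9 members in each ewe by group, with the group mean ± SD (n = 3); circles are genome arrays and squares gene arrays, and each panel has its own axis. XAF1, PARP9 and DHX58 show day 14 non-pregnant ewes below all others; ISG15, RSAD2 and IFI27 show day 14 pregnant replicate 2 as the highest ewe; the day 14 groups of IRF7 overlap.

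Of the 39 members 10 had several probe sets, 29 in all. On day 14 all probe sets had a difference above 0 for EIF2AK2, IFI44, IFITM1, LGALS3BP, PARP12, UBE2L6 and USP18. In GBP5 3 of 4 and in IRF7 2 of 3 lay above 0, and in NMI 0 of 2. EIF2AK2, GBP5, IFI44 and PARP12 each held a dim probe set (mean 3.22, 2.18, 3.19 and 2.28), whose sign says little. Of these 29 probe sets 1 passed, the brighter of UBE2L6, while its dimmer one was at 0.38. A dimmer IFI44 probe set gave 1.06 against 0.52 for the brightest, and those of USP18 ranged from 0.23 to 0.70. With all probe sets of a gene averaged, 11 members passed as well, although UBE2L6 did not (adjusted p = 0.0607).

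The median day 14 difference of members changed little with the arrays used, but the count past the threshold depended on them. Within gene arrays (1 pregnant and 2 non-pregnant) 34 of 39 members lay above 0 with a median of 0.47, and within genome arrays (2 and 1) 34 of 39 with a median of 0.49. The corresponding medians over all named genes were 0.051 and 0.0023. With 1 array left out, the median stayed between 0.50 and 0.58, while 2 to 10 members passed. The count was 2 without day 14 pregnant replicate 2 or 3, 6 without replicate 1 of that group and 5 without day 14 non-pregnant replicate 3. It was 7 without day 12 non-pregnant replicate 3 or any 1 of the 3 day 12 pregnant arrays, and 8 to 10 otherwise. Fitted on only the 6 day 14 arrays, on only the genome arrays or without both day 14 non-pregnant gene arrays, 0 members passed in limma, with medians of 0.54, 0.49 and 0.48. Shares of named genes past the threshold in these refits are not given here, so the counts do not show whether a loss was particular to the members. Without a term for the kind of array 13 passed, among them MX1 (adjusted p = 0.0344) and IRF9 (adjusted p = 0.031).

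By gene, DHX58 passed in 12 of 12 such refits, PARP9 in 11, IFI35 and XAF1 in 10, IFIT5 in 9 and DTX3L and IFI27 in 7. UBA7 passed in 3, UBE2L6 and PARP14 in 2 and TRIM21 in 1. Without day 14 pregnant replicate 3 the adjusted p was 0.0429 for DHX58, 0.081 for PARP9, 0.116 for IFI35, 0.078 for XAF1, 0.0826 for IFIT5 and 0.146 for DTX3L. In the same refit it was 0.0509 for IFI27, 0.21 for UBA7, 0.263 for UBE2L6, 0.149 for PARP14 and 0.132 for TRIM21. Without day 14 pregnant replicate 2, the 9 members besides DHX58 and PARP9 had an adjusted p between 0.0516 and 0.125, and no direction of the 11 was turned in any refit.

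On day 12, 0 of 39 members passed in limma between pregnant and non-pregnant ewes, against 0% of all named genes. At an unadjusted p under 0.05 there were 2 members higher (5.13%, against 4.72% of named genes) and 3 lower (7.69%, against 3.94%). The median difference was -0.10, against 0.027 over all named genes, with 15 members above 0 and 24 below. Pregnant ewes lay apart and above in 2 members (5.13%), against 11.3% of named genes, and apart and below in 5 (12.8%), against 7.22%.

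MX1 and TRIM21 were the 2 members whose day 12 pregnant ewes all lay above the non-pregnant ones. MX1 read 5.78, 6.16 and 6.21 in pregnant and 5.25, 5.71 and 5.49 in non-pregnant ewes (0.65 ± 0.24, adjusted p = 0.588). TRIM21 read 5.84, 5.92 and 5.88 in pregnant and 5.62, 5.80 and 5.58 in non-pregnant ewes (0.23 ± 0.10, adjusted p = 0.642). Members apart and below were PARP9, IFIT5, GBP5, IRF9 and CXCL10. CXCL10 read 5.23, 4.84 and 5.34 in pregnant and 5.52, 5.72 and 5.73 in non-pregnant ewes (-0.58 ± 0.24, adjusted p = 0.611), and GBP5 was at -0.46 ± 0.13, adjusted p = 0.473. None of these 7 passed.

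The day 12 non-pregnant group held 1 ewe with high values in most members. Replicate 2 had the highest value of its group in 29 of 39 members and the lowest in 2. Its ISG15 value was 9.62, against 8.22 and 7.60 in the other non-pregnant ewes and 7.997, 8.21 and 8.13 in the pregnant ewes of that day. XAF1 read 6.49, 7.20 and 6.40, IFI6 10.51, 11.59 and 10.33 and RSAD2 5.33, 6.12 and 5.17 in the 3 day 12 non-pregnant ewes, with replicate 2 highest in each. The median SD of members in this group was 0.200, against 0.107 for all named genes, while in day 12 pregnant ewes it was 0.125 against 0.121. Without this ewe the median day 12 difference of members was 0.043 in place of -0.10. This non-pregnant ewe was measured on a genome array, like the other 2 of its group. Its macrophage marker mean of 6.48 and T and NK cell marker mean of 4.88 were the highest of the group. The macrophage mean of replicate 1 was close, at 6.42. Its B cell marker mean of 4.75 and endothelial marker mean of 7.06 were the lowest of the group. Its neutrophil and eosinophil mean of 4.47 and dendritic cell mean of 5.87 lay between those of the other ewes. The part of cell makeup was not tested.

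**Figure D4:**
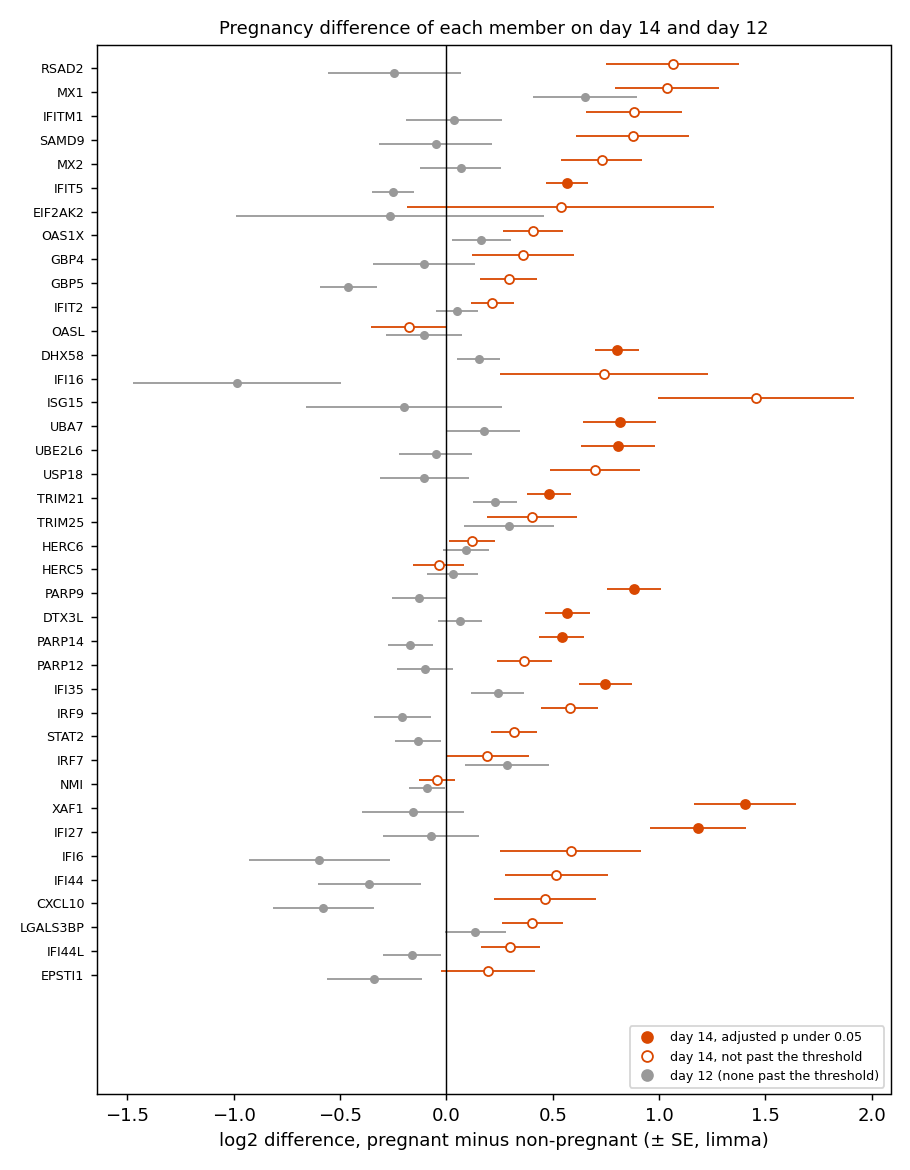
Points are the log2 difference, pregnant minus non-pregnant, of each of the 39 members with its standard error from limma, on day 14 (orange; filled where adjusted p was under 0.05) and on day 12 (grey). On day 14, 36 members lie right of 0 and 11 are filled; on day 12, 15 lie right of 0 and none passed.

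Between day 12 and day 14 of the cycle (non-pregnant ewes), 34 of 39 members had a difference below 0, with a median of -0.25, against -0.017 over all named genes. In limma 0 members passed, against 0.502% of named genes; at an unadjusted p under 0.05 there were 10 lower (25.6%, against 6.63%) and 1 higher (2.56%, against 6.72%). Day 14 ewes lay apart and below in 15 members (38.5%), against 12.4% of named genes. The luteal markers again lay on the same side, with 10 of 11 below 0, a median of -0.34, 6 (54.5%) apart and below, and NR5A2, a nuclear receptor of steroid-making cells, called lower (-0.86 ± 0.14, adjusted p = 0.0239). PARP9 came closest, with 8.13, 8.43 and 8.16 on day 12 and 7.69, 7.45 and 7.30 on day 14 (-0.72 ± 0.14, adjusted p = 0.0604). DHX58 read 6.17, 6.46 and 6.23 on day 12 and 5.85, 5.78 and 5.92 on day 14 (-0.48 ± 0.11, adjusted p = 0.109), and IFI35 read 8.39, 8.31 and 8.42 and 7.996, 7.65 and 7.48 on the same days (-0.55 ± 0.14, adjusted p = 0.136). In all 3 genes the day 14 ewes were below the day 12 ewes without overlap.

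All 3 day 12 non-pregnant arrays were genome arrays, and 2 of the 3 day 14 ones gene arrays. Without a term for the kind, the median was -0.27 and 4 members passed, all lower on day 14: PARP9 (-0.76), IFI35 (-0.66), DHX58 (-0.44) and XAF1 (-0.97). With the kind as a random block, IFIT5 (-0.40) passed as well, which made 5, at a median of -0.27. Without day 14 non-pregnant replicate 1, 1 member passed, PARP9 (-0.95, adjusted p = 0.0429). Shares of named genes past the threshold in these refits are not given here. Within genome arrays, the single day 14 array against the 3 of day 12 gave a median of -0.28 with 6 of 39 members above 0. IRF7 was the 1 member higher at an unadjusted p under 0.05 (0.49 ± 0.22, adjusted p = 0.417).

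Between day 12 and day 14 of pregnancy, 36 of 39 members had a difference above 0, with a median of 0.30, against -0.015 over all named genes. In limma 0 passed, against 0% of named genes, and 16 members were higher (41%, against 2% of named genes) and 0 lower (against 2.57%) at an unadjusted p under 0.05. Day 14 ewes lay apart and above in 18 members (46.2%), against 4.42% of named genes. Of T and NK cell markers 11 of 14 were above 0, with a median of 0.17, 2 higher at an unadjusted p and 3 (21.4%) apart and above. Of macrophage markers 9 of 11 were above 0, with a median of 0.15 and 0 apart, and 4 of 11 luteal markers were above 0. Their part in the members' differences was not tested. ISG15 read 7.997, 8.21 and 8.13 on day 12 and 8.99, 10.20 and 8.75 on day 14 (1.20 ± 0.44, adjusted p = 0.992). RSAD2 read 5.40, 5.18 and 5.53 on day 12 and 6.21, 6.83 and 5.99 on day 14 (0.97 ± 0.30, adjusted p = 0.992) and IFI27 read 9.97, 9.60 and 10.29 and 10.78, 11.25 and 10.51 on the same days (0.89 ± 0.22, adjusted p = 0.992). IFI16 had the largest fitted difference (1.29 ± 0.47, adjusted p = 0.992), and day 12 pregnant replicate 1, at 5.54, had the lowest IFI16 value of all 12 ewes. The smallest adjusted p belonged to IFIT5 and CXCL10 (both 0.84), with IFIT5 at 0.43 ± 0.10.

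The pregnancy difference was set against itself between the days through the interaction term, day 14 minus day 12. It was above 0 in 36 of 39 members, with a median of 0.65, against -0.0030 over all named genes. In limma 0 members passed, against 0.109% of named genes, and 25 were higher (64.1%, against 5.23% of named genes) and 0 lower (against 5.83%) at an unadjusted p under 0.05. Of luteal markers 8 of 11 were above 0, with a median of 0.27. At an unadjusted p under 0.05, 4 luteal markers were higher (36.4%, against 5.23% of named genes) and 0 lower. Their smallest adjusted p in limma was 0.0928. Of T and NK cell markers 13 of 14 were above 0, with a median of 0.19 and 0 higher at an unadjusted p. The part of either list in the members' interaction was not tested. Among the members, IFIT5 (0.82 ± 0.15, adjusted p = 0.0917) and PARP9 (1.01 ± 0.19, adjusted p = 0.109) came closest. Both passed without a term for the kind of array (adjusted p = 0.028 and 0.0293) and with it as a random block (0.0266 and 0.0276). PARP9 also passed without day 14 non-pregnant replicate 1 (1.23, adjusted p = 0.0439). XAF1 was at 1.56 ± 0.35, adjusted p = 0.189, ISG15 at 1.66 ± 0.68, adjusted p = 0.471 and MX1 at 0.39 ± 0.36, adjusted p = 0.792.

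The pregnancy comparisons on the 2 days and the day comparisons share groups, so their values are only set side by side. For XAF1, pregnant minus non-pregnant was 1.40 on day 14 and -0.16 on day 12, and day 14 minus day 12 was -0.98 without pregnancy and 0.58 with it. For DHX58 these 4 values were 0.80, 0.15, -0.48 and 0.17. They were 1.18, -0.072, -0.36 and 0.89 for IFI27, and 1.46, -0.20, -0.46 and 1.20 for ISG15. Members thus differed in which day 14 group lay further from day 12: non-pregnant ewes for DHX58 and XAF1, pregnant ewes for IFI27 and ISG15, with no test of that difference.

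Among the 3 day 14 pregnant ewes, replicate 2 had the highest value in 26 of 39 members and the lowest in 4, while replicate 1 was lowest in 20. In the day 14 non-pregnant group, replicates 1, 2 and 3 were highest in 19, 9 and 11 members. The median SD of members was 0.185 in day 14 pregnant and 0.212 in day 14 non-pregnant ewes, against 0.125 and 0.156 for all named genes. Replicate 2 of the pregnant group, a genome array, held the highest values of all 12 ewes for ISG15 (10.20), MX1 (7.08), RSAD2 (6.83), IFI27 (11.25), XAF1 (7.48) and CXCL10 (6.71).

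The receptors and signalling proteins upstream of these genes were taken as a list of 37 symbols, some of them other names of the same gene. Of the listed genes 21 were measured. On day 14, 0 passed in limma; at an unadjusted p under 0.05, 3 were higher (14.3%, against 9.62% of named genes) and 2 lower (9.52%, against 8.6%), and the median was 0.018. IFNAR1, a chain of the receptor for interferons alpha, beta and tau, was among the dim probe sets, at -0.063 ± 0.12, adjusted p = 0.859. IFNAR2, the other chain, read 7.02, 7.05 and 7.08 in pregnant and 7.14, 6.47 and 7.26 in non-pregnant ewes (0.053 ± 0.17, adjusted p = 0.923). The smallest p-values belonged to MAVS, the adaptor of the RNA sensors (0.30 ± 0.10, adjusted p = 0.159), JAK1 (-0.30 ± 0.10, adjusted p = 0.161), the phosphatase PTPN6 (0.63 ± 0.21, adjusted p = 0.176) and the kinase IKBKE (0.32 ± 0.12, adjusted p = 0.211). The median of this list lay near the 0.026 of all named genes, and that of the members at 0.54.

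A further 37 symbols of interferon-stimulated genes outside the members were listed too, also with earlier results of these data known. WARS and WARS1 name the same gene, and 22 genes were measured. On day 14 4 were called higher (18.2%, against 0.743% of named genes) and 1 lower (4.55%, against 1.2%), with a median of 0.36. The 4 were GBP1, a guanylate-binding protein (0.81 ± 0.14, adjusted p = 0.0211), TRIM34, of the tripartite motif family (0.69 ± 0.13, adjusted p = 0.0245), RTP4 (1.06 ± 0.20, adjusted p = 0.0276) and ZNFX1, a helicase that senses RNA (0.70 ± 0.15, adjusted p = 0.0409). GBP1 read 4.16, 4.10 and 4.76 in pregnant and 3.49, 3.69 and 3.72 in non-pregnant ewes, the latter near the dim limit of 3.59. RTP4, a receptor transporter protein induced by interferons, read 6.93, 6.90 and 6.69 in pregnant and 6.06, 5.19 and 5.87 in non-pregnant ewes. IFI30, a lysosomal thiol reductase of antigen processing, was the 1 lower, with 7.44, 7.99 and 7.98 in pregnant and 8.80, 9.96 and 9.47 in non-pregnant ewes (-1.51 ± 0.26, adjusted p = 0.0193). IFI30 thus ran against the other 4. In limma 0 of the 22 passed on day 12 (2 higher and 0 lower at an unadjusted p under 0.05), between the days in non-pregnant ewes (2 higher and 8 lower) and between the days in pregnant ewes (4 higher and 0 lower). The shares of named genes are those given for the members, and the 8 lower were 36.4% of this list.

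Markers of other cells of the gland were set beside the day 14 result. Of 14 measured T and NK cell markers 0 passed and 13 lay above 0; their mean level was 4.81 to 5.01 in pregnant and 4.66 to 4.88 in non-pregnant ewes. Of 11 macrophage markers 0 passed, and their mean was 6.20 to 6.72 in pregnant and 6.11 to 7.09 in non-pregnant ewes, highest in non-pregnant replicates 2 and 3. Of 12 endothelial markers CD34 and TIE1 were called higher (16.7%, against 0.743% of named genes). The endothelial mean was 7.04 to 7.20 in pregnant and 6.78 to 7.15 in non-pregnant ewes. None passed of 3 B cell, 7 neutrophil and eosinophil and 2 dendritic cell markers. At an unadjusted p under 0.05 in limma, 9.62% of named genes were higher and 8.6% lower. By that measure 6 luteal markers (54.5%), 3 endothelial markers (25%), 1 T and NK cell marker (7.14%) and 1 B cell marker (33.3%) were higher. Of macrophage markers 1 was higher (9.09%) and 3 lower (27.3%), and 1 dendritic cell marker was lower (50%). The marker means in pregnant and non-pregnant ewes were 4.86 to 4.94 and 4.74 to 4.90 for B cells and 4.51 to 4.66 and 4.52 to 4.83 for neutrophils and eosinophils. For dendritic cells they were 5.83 to 5.89 and 5.98 to 6.25. Among the dim probe sets were CD7 of the T and NK cell list, ITGAM of the macrophage list, CD79A and MS4A1 of the B cell list, ELANE of the neutrophil list and LAMP3 of the dendritic cell list. Of 11 luteal markers STAR (0.74 ± 0.13, adjusted p = 0.0245) and NR5A2 (1.16 ± 0.12, adjusted p = 0.00148) were higher, 18.2% of the list against 0.743% of named genes. The leukocyte ranges of the day 14 groups overlapped apart from that of the dendritic cell pair, in which LAMP3, a dim probe set, was at -0.44 and TCF4 at 0.029, and the part of cell makeup in the result was not tested.

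Some members are neighbours in the genome. Of the 39 measured members, 31 had an entry in the sheep gene table of the assembly ARS-UI_Ramb_v3.0 (RefSeq). DTX3L lies next to both PARP9 and PARP14, and all 3 passed on day 14. MX1 and MX2, IFI44 and IFI44L, and HERC5 and HERC6 are adjacent pairs, of which none passed, and IFIT2 and IFIT5 have 2 protein-coding genes between them, with IFIT5 alone past the threshold.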

How the data were processed

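The deposited table holds log2 expression values for 24128 probe sets of a bovine array on 12 sheep samples, which the authors made in Affymetrix Expression Console by RMA (tools named in the submitters' processing notes); total RNA was labelled per the labels' protocols. RMA background-corrects, quantile-normalises and summarises probes, so a shift shared by all genes is removed. Sheep RNA that pairs poorly with bovine probes reads low, and levels of different probe sets were not compared. Control probe sets (112) were left out. Of the rest, 13292 had 1 gene symbol in the platform annotation, 86 several and 10638 none; the brightest stands for a gene. Values were fitted with limma 3.58.1 (R 4.3.3), with a term for each of the 4 groups and for the kind of array. All 12 arrays shared the same estimate of the spread (7 residual degrees of freedom). The array kind passed for 0 probe sets at adjusted p under 0.05. The number of arrays limits the precision. Arrays are of different ewes, 3 per group. Members named one by one were those past the threshold in a comparison, ISG15, MX1, MX2, OAS1X, RSAD2, USP18, STAT2, IRF7 and IRF9, and others by range or as chosen after their values were seen. The members and lists were chosen with earlier results of these data known. Sequences were not used here. Alternatives covered the array term, the arrays used, weights, dim probe sets, probe set averaging, centring, the prior and each array left out.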

Additional observations from a re-analysis of the deposited data

How the results depend on the processing

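On day 14, 11 members passed; the count was 3 with array weights, 0 on the arrays of the compared groups alone, 0 on genome arrays alone and 0 without both day 14 non-pregnant gene arrays, and 2 to 10 with 1 array left out. With no term for the array kind, and with it as a random block, 13 passed; with arrays centred on their median, 10. The median member difference on day 14 was above 0 in every one of these fits. Shares of named genes called in the alternative fits are not given here, so a change in a count may not be particular to the members. On day 12 no alternative gave a call, and the median of -0.10 ranged from -0.15 to 0.043 with 1 array left out, above 0 only without non-pregnant replicate 2. Across the 2 days in non-pregnant ewes, 0 members became 4 with no array term, 5 with the random block and 0 to 1 with 1 array left out, and the median of -0.25 ranged from -0.39 without day 12 non-pregnant replicate 3 to -0.17 without replicate 2. For the interaction, 0 became 2 with no array term, 2 with the random block and 0 to 1 with 1 array left out; its median of 0.65 was 0.51 averaging probe sets, 0.50 on genome arrays alone and 0.50 without both day 14 non-pregnant gene arrays. The smaller sets of arrays hold fewer samples; other causes were not tested. No paired analysis was made, because each array is of a different ewe. With 3 ewes a group, leaving out 1 leaves a pair, assumed to vary like the other groups.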
